A study of Zea mays with 8 samples.

Results

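The seed oil genes dgat1-2, wri1a and lec1 were followed in the maize (Zea mays) endosperm that lies against the embryo. They were selected by gene name and identifier, not by their values, though with earlier results of these data known. They make up 3 of the 37965 genes in the deposited count table. RNA-seq was performed on 8 libraries of the inbred line A188, taken 19 days after pollination from tissue labelled EAS endosperm, the endosperm adjacent to the scutellum. The wild type group has 4 libraries, and the other 4 are of a KIL1 KIL2 knockout, which lacks the function of 2 NAC-family transcription factors. The study's title places KIL1 and KIL2 in endosperm elimination, the loss of endosperm as the embryo grows. The labels name no mutant allele. Nor do they tell whether replicates are separate plants, ears or pools, so the p-values reflect the spread among these libraries, part of which may be technical.

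Maize kernels store most of their oil, as triacylglycerol, in the embryo, and little in the starchy endosperm. The enzyme encoded by dgat1-2, an acyl-CoA:diacylglycerol acyltransferase, joins the last fatty acid to diacylglycerol to make triacylglycerol, and natural variation in this gene is known to affect kernel oil content. The gene wri1a encodes an AP2-type transcription factor of the WRINKLED1 family, which switches on genes of glycolysis and fatty acid synthesis. The gene lec1 encodes an NF-YB subunit of a CCAAT-binding transcription factor, and its Arabidopsis counterpart LEAFY COTYLEDON1 acts above WRINKLED1 and is known as a regulator of embryo development and seed storage. All 3 genes are known to be strongest in the embryo, so their levels in endosperm libraries also bear on embryo tissue carried along at dissection. No embryo library was analysed here, and in bulk tissue fewer cells of a type and less RNA per cell cannot be told apart.

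Libraries held 47143888 to 65625013 counts in the knockout and 58330218 to 80577963 counts in wild type, and 25798 to 27592 genes per library had a count. The identifiers of the table could not be paired with names in the reference table used here, so KIL1 and KIL2 themselves, markers of the EAS, of other endosperm layers and of the embryo, and other genes of oil synthesis were not checked. The genotype and tissue labels therefore stand as given.

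The gene models of the 3 genes differ in size and structure, which sets how many reads each can collect. In the coordinates of the deposited A188 annotation, dgat1-2 (Zm00001d036982) lies on the minus strand of chromosome 6 from 114399807 to 114406691, with 15 exons after merging of transcripts and 2124 bases of exon. The gene wri1a (Zm00001d005016) lies on the plus strand of chromosome 2 from 159043257 to 159048724, with 6 merged exons and 2830 bases of exon. The gene lec1 (Zm00001d017898) lies on the minus strand of chromosome 5 from 214541997 to 214542836 as a single exon of 840 bases without an intron. The exons of these genes shared no base with another gene of the table, so no read was lost to an overlapping gene.

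**Figure D1:**
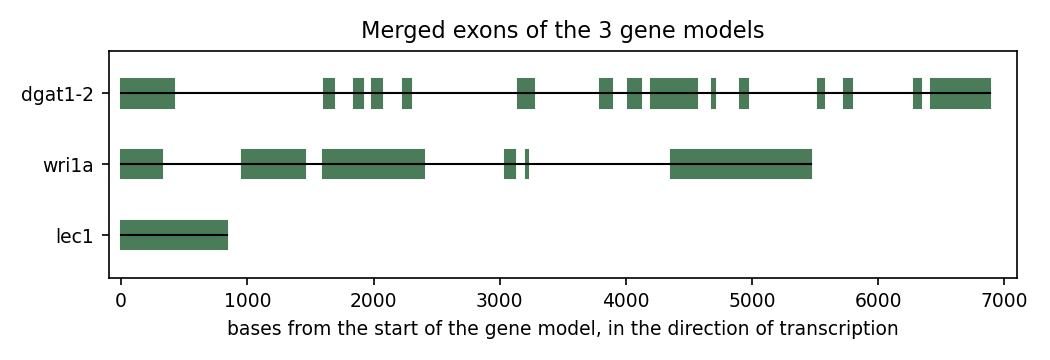
Merged exons (boxes) and introns (lines) of the 3 gene models, drawn to scale from the start of each model in the direction of transcription, in bases. The model of dgat1-2 has 15 exons, that of wri1a has 6 and that of lec1 is 1 block of 840 bases.

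The identifiers were checked against their surroundings. Of the 10 nearest genes of the table on the same chromosome, 10 had an identifier number within 20 of that of dgat1-2, 8 within 20 of that of wri1a and 7 within 20 of that of lec1. In the RefSeq table of the B73 line, the names DGAT1-2 and lec1 stand on chromosomes 6 and 5, the same chromosomes as here. The name wri1a was not found in that table. A shared chromosome does not settle which gene an identifier stands for, so each name rests on the identifier as given.

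The enzyme gene dgat1-2 was measured at a low to middle level in every library, with no detectable change in the knockout. It had 309, 529, 405 and 294 counts in wild type replicates 1 to 4 and 193, 425, 285 and 334 counts in knockout replicates 1 to 4. Scaled by TMM-adjusted library size, these are 5.14, 6.16, 6.30 and 4.82 CPM (normalised counts) in wild type. In the knockout they are 4.25, 7.50, 5.25 and 5.22 CPM. Knockout replicates 1 and 2 held the lowest and the highest value of all 8 libraries, so the wild type values lay inside the knockout range.

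The mean of dgat1-2 was 5.61 ± 0.74 CPM (SD, n = 4) in wild type and 5.55 ± 1.38 CPM in knockout libraries. The log2 fold change was -0.01 with a standard error of 0.16 (edgeR quasi-likelihood test, adjusted p = 0.97) and a 95% interval of -0.37 to 0.35. The interval spans levels from 1.29-fold lower to 1.27-fold higher in the knockout, so these libraries allow a change within that span. It does not give the smallest change that could have been detected. The sign of the estimate was not stable: it turned positive with upper quartile factors (0.01) and without each of 5 libraries, namely knockout replicates 1, 3 and 4 (0.09, 0.01 and 0.02) and wild type replicates 2 and 3 (0.04 and 0.05). The coefficient of variation between libraries was 24.8% in the knockout and 13.1% in wild type, against 4.35% to 7.20% for counting error if the reads were independent and 6.15% to 10.2% if each fragment gave 2 counts.

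The regulator gene wri1a was lower in the knockout, by a modest amount. It had 1438, 2143, 1428 and 1601 counts in wild type replicates 1 to 4 and 767, 873, 1196 and 1002 counts in knockout replicates 1 to 4. In CPM, wild type libraries had 23.9, 24.9, 22.2 and 26.3. Knockout libraries had 16.9, 15.4, 22.0 and 15.7 CPM. Knockout replicates 1, 2 and 4 lay together well below wild type, while knockout replicate 3 came within 0.187 CPM of the lowest wild type library, and the groups did not overlap.

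The mean of wri1a fell from 24.3 ± 1.71 CPM (SD, n = 4) in wild type to 17.5 ± 3.10 CPM (SD, n = 4) in the knockout, 71.9% of the wild type mean. The log2 fold change was -0.48 (SE 0.11, 95% interval -0.71 to -0.24, edgeR quasi-likelihood test, adjusted p = 0.0105), which is 1.39-fold lower (interval 1.18 to 1.64). Of the 22014 genes tested across the table, 18.6% passed the same threshold of 0.05 and 10.1% passed it in the lower direction, so a fall past the threshold was common; 8.51% passed it in the higher direction. Values without overlap between the genotypes were found for 23.2% of tested genes, and for 12.3% with the knockout lower. Of all tested genes, 1933 had a lower log2 fold change than wri1a, which put its fall at the 8.78th percentile from the lowest. Among the 6143 tested genes within 2-fold of the mean CPM of wri1a, 824 passed the threshold in the lower direction (13.4%). In the higher direction 548 passed it (8.92%).

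Knockout replicate 3 stood closest to wild type and weighed on the size of the fall. Without it the log2 fold change of wri1a was -0.61 (edgeR adjusted p = 0.000436), and over the other libraries left out in turn it lay between -0.52 and -0.42 with adjusted p up to 0.0314. The lack of overlap depended on how libraries were scaled only in its width: the lowest wild type library exceeded the highest knockout library by 0.163 CPM with relative log expression factors, 0.0172 CPM with upper quartile factors and 2.72 CPM with library totals. Library totals also moved the median log2 fold change of all tested genes to -0.12. Relative to that median, wri1a stood at -0.48 and dgat1-2 at -0.01.

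**Figure D2:**
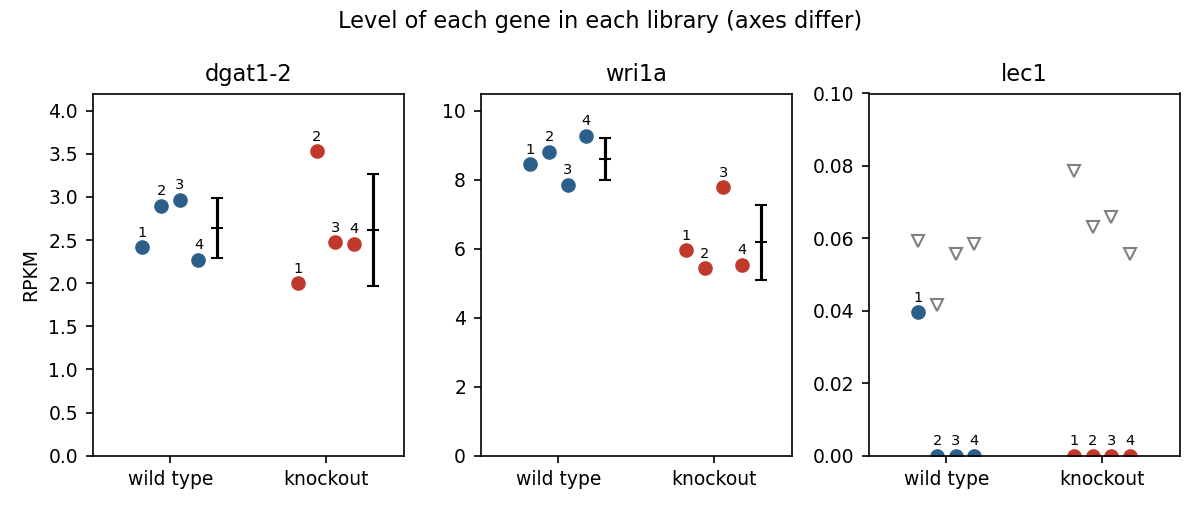
Level of each gene in each library, in RPKM (points, numbered by replicate), with the mean and SD of each group of 4 (black bars) for dgat1-2 and wri1a. The y axes differ between panels and start at 0. Open triangles in the lec1 panel mark the level that 3 counts would give in that library. The genotypes overlap for dgat1-2 and not for wri1a, and lec1 is at 0 in 7 of 8 libraries.

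The embryo regulator lec1 was close to absent from the counts. It had 2 counts in wild type replicate 1 and 0 in each of the other 7 libraries, out of 489506423 counts over all libraries. The reads of a pair were counted separately, so these 2 counts may come from a single fragment. With 2 counts the level in wild type replicate 1 was 0.0396 RPKM, reads scaled to exon length in kb and to library size (95% Poisson interval 0.00479 to 0.143, for counting error only).

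With independent reads, a count of 0 allows a level of lec1 up to that of 3 counts (one-sided 95% limit, for counting error only), which was 0.0416 to 0.0786 RPKM in the 7 libraries without a count. If every fragment gave 2 counts, these limits would be 2 times as high. Taken over the 4 knockout libraries together, 3 counts correspond to 0.0162 RPKM. The gene did not pass the filter on low counts and was not tested. In a fit without that filter its adjusted p was 0.498 (edgeR quasi-likelihood test), and no fold change is given, since both genotypes are at or under 3 counts. A difference of lec1 between the genotypes was not detectable at this depth. In the table, 8857 genes (23.3%) had 2 or fewer counts over all libraries, so a count as low as that of lec1 was not unusual.

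Per length of exon, the order of the genes was the same in every library, with wri1a highest, dgat1-2 below it and lec1 at or near 0. The level of wri1a was 8.60 ± 0.60 RPKM (SD, n = 4) in wild type and 6.18 ± 1.09 RPKM in the knockout. That of dgat1-2 was 2.64 ± 0.35 RPKM in wild type and 2.61 ± 0.65 RPKM in the knockout. The lowest level of wri1a, 5.44 RPKM in knockout replicate 2, exceeded the highest level of dgat1-2, 3.53 RPKM in the same library, so these neighbours in the order differed beyond their spread.

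Among genes with a count in a library, wri1a stood at the 59.8th to 69.8th percentile of level per exon length and dgat1-2 at the 42.8th to 52.6th. Against the same limit of 3 independent counts per library, dgat1-2 was at least 25.4-fold to 69.7-fold higher than lec1 in the 7 libraries without a lec1 count, and wri1a was at least 75.9-fold to 212-fold higher. These bounds cover counting error in lec1 only and would be 2 times smaller if every fragment gave 2 counts. Transcripts of dgat1-2 and of wri1a were thus counted in libraries where lec1 had a count of 0. How high lec1 stands in an embryo of this age was not measured here, so its low count sets no limit on the share of embryo tissue.

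**Figure D3:**
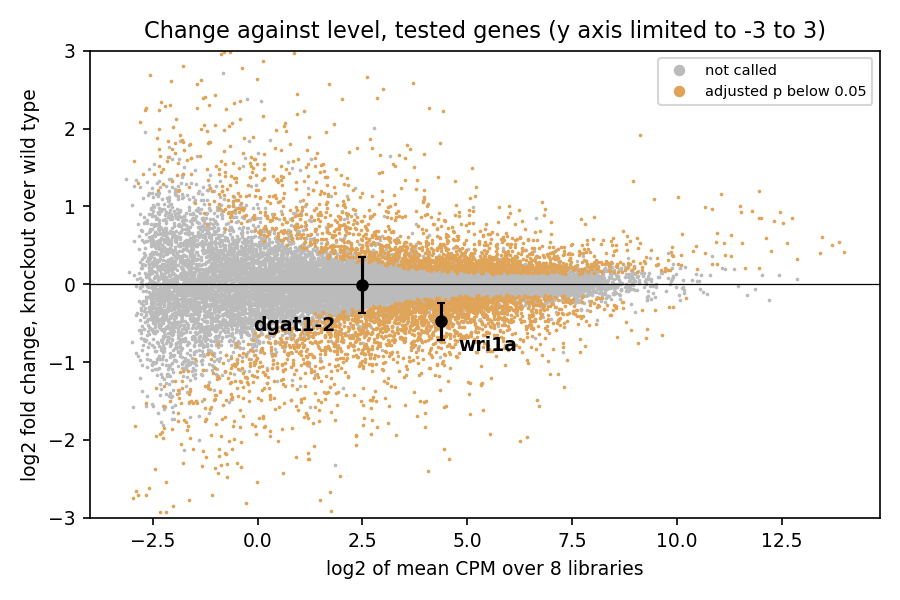
Log2 fold change of knockout over wild type (y axis) against the log2 of the mean CPM over 8 libraries (x axis) for the tested genes, with those at an adjusted p below 0.05 in orange. Black points with 95% intervals are dgat1-2, at -0.01, and wri1a, at -0.48; lec1 was not tested and is not drawn, nor are 29 tested genes beyond 3 in either direction.

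If embryo tissue varied between libraries, genes that are strongest in the embryo could be high in the same libraries, so the values of dgat1-2 and wri1a were set side by side. Knockout replicate 2 had the highest dgat1-2 of its group, at 0.46 above the group mean in log2 CPM, and the lowest wri1a, at -0.17. Knockout replicate 3 had the highest wri1a of its group, at 0.35 above the mean, with dgat1-2 at -0.05. Knockout replicate 1 had the lowest dgat1-2, at -0.35, with wri1a at -0.04. In knockout replicate 4 both genes were below their group means, dgat1-2 at -0.06 and wri1a at -0.14.

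In wild type, replicate 4 had the highest wri1a (0.11 above the group mean) and the lowest dgat1-2 (-0.21). Wild type replicate 3 had the highest dgat1-2 (0.18) and the lowest wri1a (-0.13). Wild type replicate 1, the only library with a lec1 count, had dgat1-2 and wri1a at -0.12 and -0.02, both below their group means. Wild type replicate 2 was the only library with both genes above their group means, dgat1-2 at 0.14 and wri1a at 0.04. Both genes lay on the same side of their group means in knockout replicates 1 and 4 and wild type replicates 1 and 2. They lay on opposite sides in knockout replicates 2 and 3 and wild type replicates 3 and 4. No library was the highest of its group for both genes, and the part of embryo tissue in these values was not tested.

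**Figure D4:**
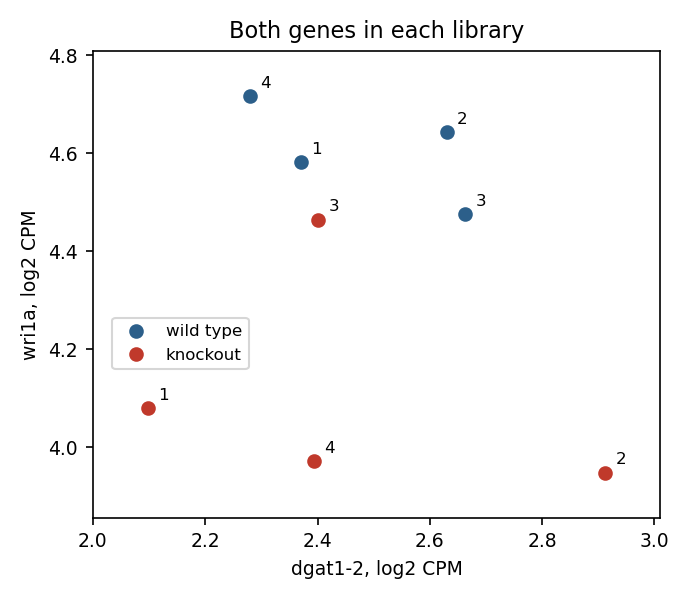
Log2 CPM of wri1a (y axis) against log2 CPM of dgat1-2 (x axis) in each of the 8 libraries, numbered by replicate. The wild type libraries lie above the knockout libraries along the wri1a axis, knockout replicate 3 nearest to them, while along the dgat1-2 axis the genotypes mix.

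The ratio of the levels of wri1a and dgat1-2 within a library does not depend on library scaling. Per exon length it was 3.49, 3.04, 2.65 and 4.09 in wild type replicates 1 to 4 and 2.98, 1.54, 3.15 and 2.25 in knockout replicates 1 to 4. The mean ratio was 3.32 ± 0.62 (SD, n = 4) in wild type and 2.48 ± 0.74 in the knockout. The ranges overlapped, and whether the change of wri1a differs from that of dgat1-2 was not tested.

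Of the 6 genes next to the members along the chromosomes, given by identifier, 4 had enough counts to be tested. Zm00001d036981, on the plus strand 594 bases beyond the 3' end of dgat1-2, had a mean of 14.4 CPM and was lower in the knockout (log2 fold change -0.33 with SE 0.08, edgeR adjusted p = 0.0123). The genes converge on each other, and the counts did not use strand, but their exons do not overlap. The gene on the other side of dgat1-2, Zm00001d036983, had 0 counts in every library. Beside wri1a, Zm00001d005015 had a log2 fold change of 0.16 with SE 0.09 (edgeR adjusted p = 0.272) and Zm00001d005017 had 10 counts over all libraries. Beside lec1, Zm00001d017897 lies 1982 bases away and had 502 to 1080 counts per library, with a log2 fold change of -0.12 with SE 0.06 (edgeR adjusted p = 0.239). Zm00001d017899, on the other side of lec1, had 22 to 96 counts per library and a log2 fold change of -0.34 with SE 0.42 (edgeR adjusted p = 0.629).

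Genes with the pattern most like each member were sought by the mean absolute difference of log2 CPM over the 8 libraries, after centring each gene on its own mean, among tested genes within 2-fold of the member's mean CPM. Of 6143 such genes, the nearest to wri1a were Zm00001d003929, Zm00001d037978 and Zm00001d043737, which differed from it by 0.0588, 0.0651 and 0.0724 in log2 CPM, where the median gene differed by 0.277. Their log2 fold changes were -0.42, -0.39 and -0.59 (edgeR adjusted p = 0.0178, 0.0477 and 0.00156), and since the measure includes the difference between genotypes, this sameness follows from the choice. Of 4624 genes, the nearest to dgat1-2 were Zm00001d012219, Zm00001d020057 and Zm00001d034485, at 0.101, 0.105 and 0.105, where the median gene differed by 0.247. Their log2 fold changes were -0.04, 0.14 and -0.01 (edgeR adjusted p = 0.867, 0.512 and 0.942). By the same measure wri1a and dgat1-2 differed from each other by 0.312, more than the median gene in either comparison. That value also includes the fall of wri1a between genotypes. The medians are over genes within 2-fold of one member's mean CPM, a range that the other member lies outside.

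**Figure D5:**
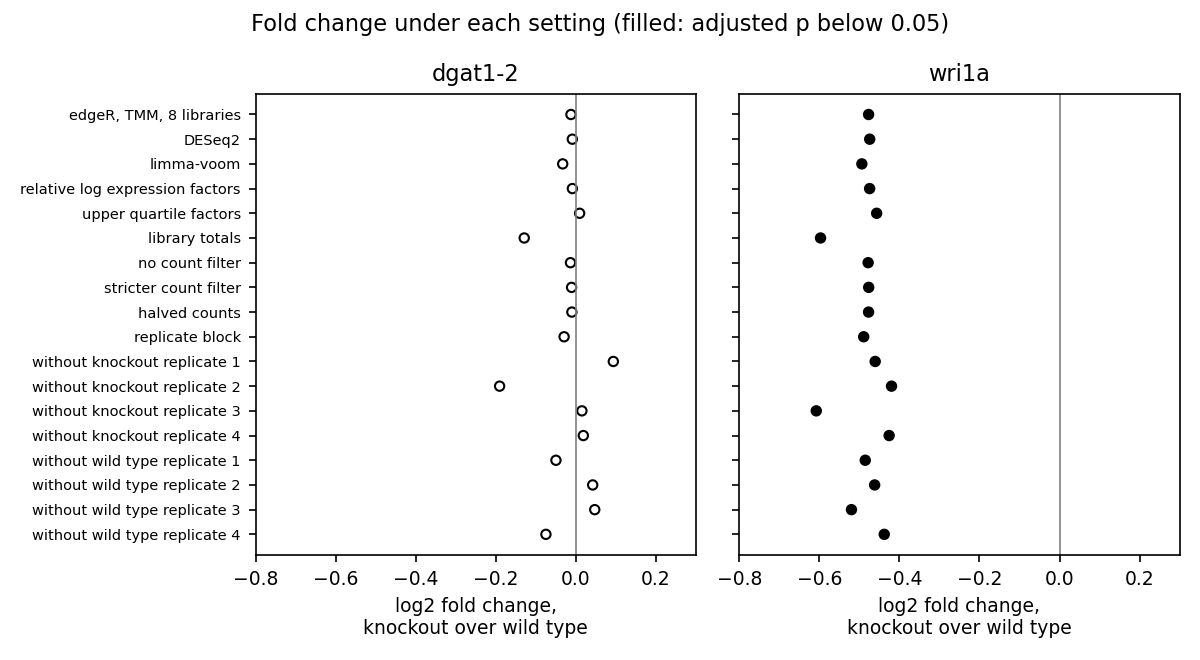
Log2 fold change of knockout over wild type (x axis) for dgat1-2 and wri1a under the test as reported (top) and each alternative, including each library left out. Filled points have an adjusted p below 0.05. All points of wri1a, the reported one and the 17 alternatives, are filled and lie between -0.61 and -0.42, and the points of dgat1-2 are open and lie on both sides of 0.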

How the data were processed

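Per the labels' protocols, DNase-treated total RNA was made into paired-end libraries. Trimmomatic 0.39 and HISAT2 were used, per the submitters' processing notes; for HISAT2 no version is given in the sources used here. The authors deposited counts of reads by gene, per the file headers made by featureCounts 2.0.1 on an A188 annotation, beside each exon length. The recorded command kept the defaults: strand was not used, a read with more than 1 alignment or gene was dropped, and both reads of a fragment counted, so near-identical copies of a gene would be undercounted.

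From these counts, genes were kept by filterByExpr (22014 genes), scaled by TMM factors and tested with edgeR's quasi-likelihood test (edgeR 4.0.16, R 4.3.3), with Benjamini-Hochberg adjustment over all tested genes and a threshold of 0.05. Standard errors were derived from the F statistic. CPM and RPKM (CPM per kb of exon) used TMM-adjusted library sizes. The log2 CPM values used a prior count of 2. Alternatives used DESeq2 1.42.0, limma 3.58.1, other scalings and filters, halved counts, a replicate block and each library left out. The procedure was tested on simulated data.

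The genes and lists were chosen with earlier results of these data known. Named genes were the 3 members, the adjacent gene on each side and the 3 genes most like each tested member. Planned lists of oil genes and of cell type markers (33 and 25 symbols) were not run, because 0 of the 37965 identifiers matched the 49888 genes of the RefSeq table (Zm-B73-REFERENCE-NAM-5.0). Intervals and limits cover counting error only where so stated.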

Additional observations from a re-analysis of the deposited data

Results flagged for a closer look

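Among 10 sets of 4 values searched, 2 held a library past the 95% limit of Dixon's test for a value far from the rest of its group. By its construction, that limit is passed by chance in about 1 set in 20, a rate that does not apply to lec1, where the other values of the group are all 0. The total of wild type replicate 2 was 80577963 counts, against 58330218 to 61613873 for the rest of its group. Without it the log2 fold change was -0.46 for wri1a (edgeR adjusted p = 0.0302) and 0.04 for dgat1-2 (edgeR adjusted p = 0.917). Wild type replicate 1 had 0.0333 CPM of lec1, from 2 counts, where the other wild type libraries had 0.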

How the results depend on the processing

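The fall of wri1a kept its direction and an adjusted p below 0.05 in all 17 alternatives, with log2 fold changes from -0.61 to -0.42, and dgat1-2 passed the threshold in 0 of 17. The sign of dgat1-2 turned with upper quartile factors (0.00922), and over each library left out its log2 fold change lay between -0.191 and 0.0934, positive without knockout replicate 1, 3 or 4 or wild type replicate 2 or 3. The number of genes called, 4086, lay between 2783 and 5775 in all 17 alternatives; library totals changed its split from 1873 higher and 2213 lower to 1032 higher and 4743 lower. The counts of lec1, 2 in all, became 1 with halved counts and 0 to 2 over each library left out. The mean log2 ratio of dgat1-2 to wri1a was -1.48 per exon length, -1.90 without exon length, and between -1.61 and -1.41 over each library left out. In a fit with the replicate number as block, the log2 fold change was -0.49 for wri1a (edgeR adjusted p = 0.0295) and -0.03 for dgat1-2 (adjusted p = 0.91), with 3000 genes called; deviations of same-numbered libraries from their group means correlated at 0.101, 0.103, -0.0493 and -0.126, and the best partner was the same number for 2 of 8 libraries, so the numbers were not taken as pairs. With 2 counts of lec1 in all, no difference between the genotypes was detectable for this gene.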
